A study of Mus musculus with 4 samples.

Results

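Cathepsins and the vacuolar proton pump are the enzymes and the acid source of the lysosome. The genes described here were taken by symbol, as every gene whose name starts with Cts followed by letters or digits, or with Atp6v or Atp6ap, leaving out 1 symbol marked as a pseudogene. This gave 48 of 23990 genes, of which 23 were cathepsins and 25 were pump genes. Their RNA was measured in sorted cells labelled as alveolar type 1 (AT1) cells, the flat cells that line most of the gas-exchange surface. The cells came from the lungs of mice at postnatal day 3 or 4.

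Cathepsins are proteases that are made as inactive precursors, carried to the lysosome and switched on there by acid. The acid comes from the vacuolar proton pump, in which the V1 sector in the cytosol burns ATP and the V0 sector in the membrane lets protons through. Several subunits are encoded by more than 1 gene, usually a broadly expressed form and a form restricted to tissues such as kidney, bone or brain. In lung, alveolar type 2 (AT2) cells, the surfactant-making neighbours of AT1 cells, also use the acid and cathepsin H to process surfactant proteins in lamellar bodies, which are lysosome-related organelles.

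There were 4 RNA-seq libraries. All mice were of mixed B6 and 129 strain and carried Scnn1a-Cre, so that Cre acts in cells that use the Scnn1a promoter. By their labels, the libraries labelled Sox2 (n = 2) have the genotype Rosa[Sox2/+], which adds a Sox2 transgene. Those labelled WT (n = 2) are given as Rosa[mTmG/+], a membrane reporter, so these controls are not free of Cre. Mutants and controls were littermates, but the labels do not say which libraries share a litter or whether each came from a single animal, so that p-values measure the spread between these libraries only. Values are FPKM, fragments scaled to transcript length and to the size of the library, which can be set side by side between genes.

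Sox2 itself was low where the label names it, at 1.41 and 1.99 FPKM against 302 and 477 FPKM in the libraries labelled WT, so it goes against the labels (log2 difference -7.15, SE 0.34, limma adjusted p = 2.39e-06). Transgene and endogenous gene share 1 value. Whether labels or files were exchanged was not tested, and all directions below follow the labels as deposited. The 14 AT1 markers summed to 8433 and 9719 FPKM in the libraries labelled Sox2 against 1742 and 870 FPKM, and 12 of them passed the test described below, all upward. The 14 AT2 markers summed to 26961 and 18764 FPKM in the libraries labelled Sox2 against 6532 and 1146 FPKM in those labelled WT, so the defining markers of another cell type were far from 0 in a sort labelled AT1. Basal and squamous markers summed to 2.90 and 1.88 FPKM against 87.0 and 525 FPKM. Libraries held 11062 to 12096 genes of at least 1 FPKM, and absolute depth is unknown. The authors' bounds around a value had a median half-width of 7.94% and 12.4% in the libraries labelled Sox2 against 7.81% and 9.90% in those labelled WT. Small RNA genes took 14.0% and 5.75% of all FPKM in the libraries labelled Sox2 against 19.3% and 50.9%, and over all tested genes the differences had a median of -0.29 (log2), a shift that the differences below carry too.

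Start-site sequences were examined for a short motif shared by lysosomal genes. TFEB and its relatives, the basic helix-loop-helix factors that switch on lysosomal genes, bind a motif with the core TCACGTGA, which reads the same on both strands. RefSeq windows on GRCm38.p6, from 250 bases before to 50 after the start, were available for 37 of the 48 genes. The core was found in 5 of these 37 (13.5%), against 304 of 27025 genes with a window (1.12%). A match describes the letters only and is not evidence of binding. The core was searched as one that lysosomal genes share, so the higher share here is not an independent result. Each of the 5 is shown as 30 bases, 5′ to 3′ on the gene's own strand, with the core in capitals. They show 1 match for each gene that held the core. Ctsa held 2, starting at -13 and at 4 from its start site, and the first is shown.
Ctsa: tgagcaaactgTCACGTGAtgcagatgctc
Ctsd: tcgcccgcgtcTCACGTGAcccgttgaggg
Atp6v1a: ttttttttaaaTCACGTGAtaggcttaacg
Atp6v0d1: ccctactgcggTCACGTGAgacgcggtgcg
Atp6v0e: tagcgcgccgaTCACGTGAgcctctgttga
These stretches lie at chr2:164833749-164833778 (Ctsa, plus strand), chr7:142387908-142387937 (Ctsd, minus), chr16:44139373-44139402 (Atp6v1a, minus), chr8:105566050-105566079 (Atp6v0d1, minus) and chr17:26676387-26676416 (Atp6v0e, plus). They belong to 2 cathepsins and 3 pump subunits, and none of the 5 genes passed the test between the labels described below.

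Both pump genes that did pass, Atp6v1c2 and Atp6v0e2, have their 250 bases before the start shown next, because they moved in opposite directions. Capitals mark ACAAAG, which with ACAATG was searched on both strands as a core that SOX factors can bind. Atp6v0e2 held 1 match and Atp6v1c2 held none in this window. ACAAAG was found in 21.0% of all genes with a window and in 5 of the 37 genes described here (13.5%). ACAATG was found in 14.3% of all genes and in 6 of the 37 (16.2%). At these shares a single match is common.
Atp6v1c2: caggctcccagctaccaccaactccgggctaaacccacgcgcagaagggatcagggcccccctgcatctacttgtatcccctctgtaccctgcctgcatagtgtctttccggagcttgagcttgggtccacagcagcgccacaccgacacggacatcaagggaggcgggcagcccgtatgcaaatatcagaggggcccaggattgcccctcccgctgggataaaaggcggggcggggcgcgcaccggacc
Atp6v0e2: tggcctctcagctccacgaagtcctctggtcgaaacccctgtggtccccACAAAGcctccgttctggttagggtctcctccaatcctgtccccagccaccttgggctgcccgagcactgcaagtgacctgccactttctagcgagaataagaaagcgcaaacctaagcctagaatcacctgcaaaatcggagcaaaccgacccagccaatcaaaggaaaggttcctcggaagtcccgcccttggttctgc
The first covers chr12:17324731-17324980 on the minus strand and the second chr6:48537319-48537568 on the plus strand.

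Of the 48 genes, 32 reached a mean of 1 FPKM over the 4 libraries and were tested, 11 cathepsins and 21 pump genes. The other 16 were at or below 0.594 FPKM in every library, and 10 of them were listed at 0 throughout. Testing used limma on log2(FPKM + 1), with Benjamini-Hochberg adjustment over 12040 genes and 0.05 as the threshold. Differences are labelled Sox2 minus labelled WT on that scale, where changes of low genes come out too small. Atp6v1c2 and Ctsh were higher, Atp6v0e2 was lower, and 29 did not pass. The 3 calls are 9.38% of the tested genes, against 12.3% of all genes, and are therefore no more frequent than the background. By direction the background was 4.20% higher and 8.11% lower. It was 8.01% and 5.70% after median-of-ratios rescaling, which moves the median of all genes to 0, 8.14% and 6.87% after quantile normalization, 6.69% and 5.57% after rescaling without small RNA genes, and 5.01% and 11.2% with limma's robust variance model. The same 3 genes passed under each of these, and the robust model added Atp6v1d. None of the 3 passed when all 23990 genes entered the fit (limma adjusted p = 0.211 for Atp6v0e2, 0.282 for Ctsh and 0.321 for Atp6v1c2). The groups did not overlap in 5 of the 32 upward (15.6%) and 8 downward (25.0%), against 15.7% and 42.5% of all tested genes.

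**Figure D1:**
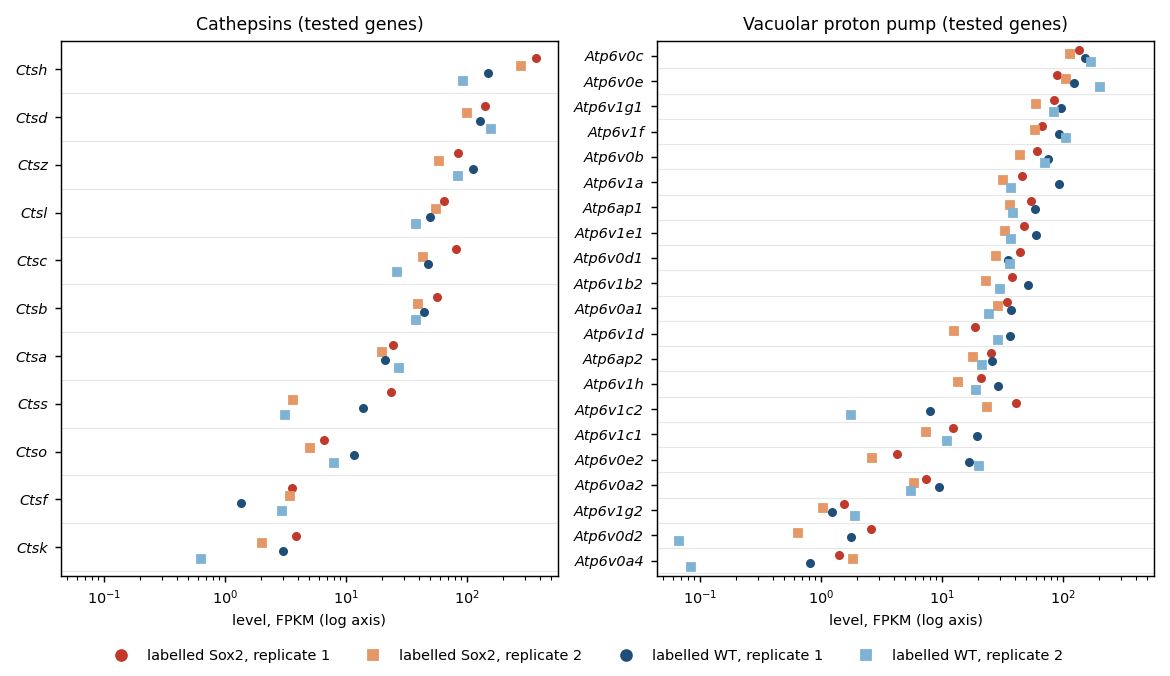
Level of each tested gene in each library, in FPKM on a log axis, for the 11 cathepsins (left) and 21 pump genes (right), ordered by mean; 1 point is 1 library. By mean, Ctsh is the highest cathepsin and Atp6v0c the highest pump gene, and the widest gaps between the labels are those of Atp6v1c2 and Atp6v0e2.

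**Figure D2:**
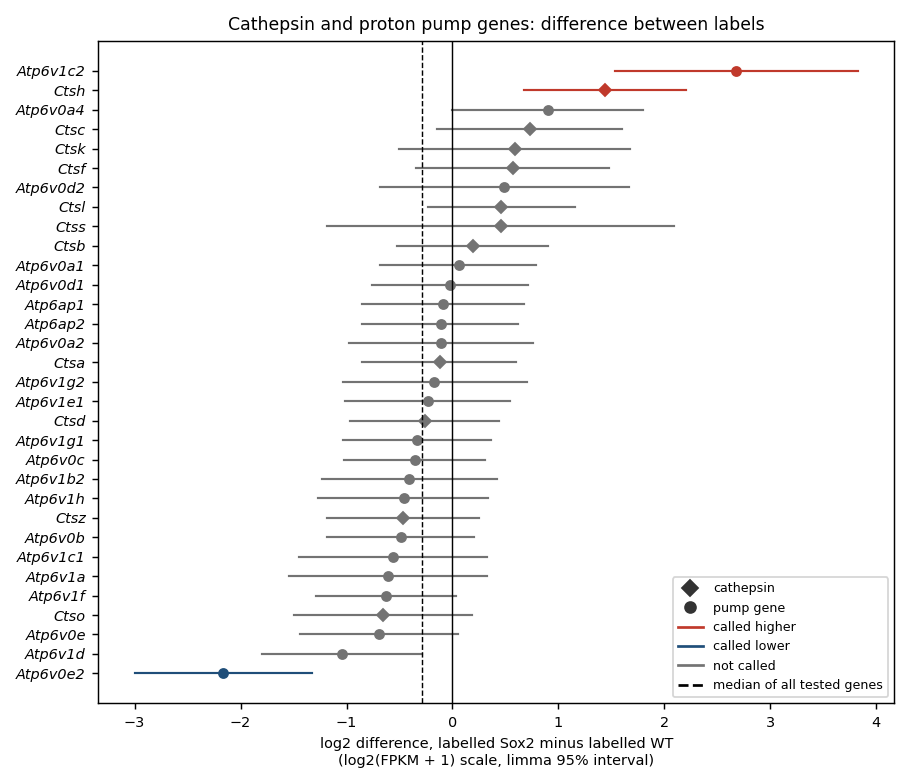
Log2 difference, labelled Sox2 minus labelled WT, of the 32 tested genes with limma's 95% interval; the dashed line is the median of all tested genes, -0.29. Atp6v1c2 (2.68) and Ctsh (1.44) passed upward and Atp6v0e2 (-2.17) downward, while 29 genes in grey did not pass.

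Among the V1 sector genes, Atp6v1c2 stood out. It encodes the C2 form of subunit C, which links the V1 sector to its membrane part and whose C2 form is known from mouse lung and kidney. The gene is listed on mm10 at chr12:17284721-17324730. It was measured at 40.9 and 23.4 FPKM in the libraries labelled Sox2, against 7.96 and 1.79 FPKM in those labelled WT. Both libraries labelled Sox2 lay above both labelled WT, and the authors' bounds around these values did not touch between the labels. The means of 32.1 ± 12.3 FPKM under the Sox2 label and 4.88 ± 4.37 FPKM under the WT label (SD, n = 2 each) differed 6.59-fold, and the log2 difference was 2.68 (SE 0.52, limma adjusted p = 0.00926). Leaving out a library labelled Sox2 ended the limma call, both for replicate 1 (log2 difference 2.29, adjusted p = 0.0881) and for replicate 2 (3.07, adjusted p = 0.0607). The fold was 18.0 without labelled WT replicate 1 and 4.04 without labelled WT replicate 2. Pdia6, a neighbour on the opposite strand, shares 50 bases with Atp6v1c2 and had 114 and 73.4 FPKM in the libraries labelled Sox2 against 123 and 49.9 FPKM.

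Atp6v1c1, the broadly expressed C1 form, had 12.4 and 7.44 FPKM in the libraries labelled Sox2 against 19.5 and 11.1 FPKM in those labelled WT. These groups overlapped (log2 difference -0.56, limma adjusted p = 0.388). As a share of the 2 genes' summed FPKM, which no scaling of a library can change, Atp6v1c2 made up 76.7% and 75.9% in the libraries labelled Sox2, against 29.0% and 13.9% in those labelled WT. C2 was thus the more abundant form in both libraries labelled Sox2 and the less abundant in both labelled WT. The mean shares were 76.3% ± 0.535 under the Sox2 label and 21.5% ± 10.7 under the WT label (SD, n = 2 each), a difference of 54.8 percentage points. With 2 against 2 libraries an exact two-sided permutation test cannot go below p = 0.33, and the share is given as a description. The summed level of subunit C came to 53.3 and 30.9 FPKM in the libraries labelled Sox2 against 27.4 and 12.9 FPKM in those labelled WT.

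The other V1 subunits were present in all libraries and none passed. Atp6v1a, the catalytic A subunit, stood at 45.7 and 32.0 FPKM in the libraries labelled Sox2 against 92.6 and 37.1 FPKM in those labelled WT. Labelled WT replicate 1 was high and the other 3 libraries were close together. Without labelled WT replicate 2 its difference of -1.25 passed (limma adjusted p = 0.0243), and without labelled WT replicate 1 it was 0.04. Subunit B, the partner of A in the ATP-binding ring, came almost wholly from Atp6v1b2, with 38.2 and 23.0 FPKM against 51.5 and 30.5 FPKM. Atp6v1b1, the form of kidney intercalated and other proton-secreting cells, did not exceed 0.260 FPKM. Foxi1, which defines proton-secreting cells, was listed at 0 in every library, and none of 3 tested markers of those cells passed.

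Atp6v1d, which encodes the D subunit of the rotating central stalk, came nearest to the threshold among the genes that missed it. It stood at 18.6 and 12.5 FPKM in the libraries labelled Sox2 against 36.5 and 29.0 FPKM in those labelled WT, without overlap (log2 difference -1.04, SE 0.34, limma adjusted p = 0.0704). It passed with the robust variance model (limma adjusted p = 0.0474). Atp6v1f, its partner F in the stalk, had 67.6 and 59.1 FPKM against 92.0 and 105 FPKM, likewise without overlap (log2 difference -0.63, limma adjusted p = 0.189).

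The outer stalks of the pump consist of subunits E and G. Atp6v1e1 had 48.0 and 33.5 FPKM in the libraries labelled Sox2 against 60.1 and 37.2 FPKM in those labelled WT, whereas the testis form Atp6v1e2 was listed at 0. Atp6v1g1 had 84.2 and 60.3 FPKM against 96.6 and 84.1 FPKM. It made up 97.8% to 98.7% of subunit G in the 4 libraries. The brain form Atp6v1g2 had 1.55 and 1.04 FPKM against 1.25 and 1.92 FPKM, and the kidney form Atp6v1g3 did not exceed 0.152 FPKM. Atp6v1h, whose subunit H holds back a free V1 sector, had 21.0 and 13.5 FPKM against 29.3 and 19.1 FPKM.

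In the V0 sector, Atp6v0e2 was lower in the libraries labelled Sox2. It encodes the e2 form of the small membrane subunit e and is known mainly from brain. Listed at chr6:48537569-48541800, it had 4.24 and 2.63 FPKM in the libraries labelled Sox2 against 16.9 and 20.4 FPKM in those labelled WT. The groups lay far apart relative to their spread, with means of 3.43 ± 1.14 FPKM under the Sox2 label and 18.6 ± 2.51 FPKM under the WT label (SD, n = 2 each), 5.43-fold higher in the libraries labelled WT. The log2 difference was -2.17 (SE 0.38, limma adjusted p = 0.00549). It did not pass when labelled Sox2 replicate 2 was left out (-1.90, limma adjusted p = 0.0962) and held without any other single library. Summed basal and squamous markers were also lower in the libraries labelled Sox2, at 2.90 and 1.88 FPKM against 87.0 and 525 FPKM. The 6 tested, of 9 listed, reached the 1 FPKM filter mainly through the libraries labelled WT. Their common direction was thus largely set by the filter. The part of such cells in the level of Atp6v0e2 was not tested.

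Atp6v0e, the broadly expressed form of the same subunit, had 88.5 and 106 FPKM in the libraries labelled Sox2 against 123 and 202 FPKM in those labelled WT. It did not overlap between the labels either, but did not pass (log2 difference -0.69, limma adjusted p = 0.198). Atp6v0e2 held 4.57% and 2.41% of subunit e in the libraries labelled Sox2 against 12.1% and 9.18% in those labelled WT. Its share therefore differed by -7.15 percentage points, and Atp6v0e remained the main form in all 4 libraries.

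Atp6v0c, which encodes the proton-carrying ring, was the most abundant pump gene by mean, with 136 and 115 FPKM in the libraries labelled Sox2 against 151 and 170 FPKM in those labelled WT. Its pseudogene Atp6v0c-ps2 lies across 5530 bases of the same locus on the other strand and was listed at 2.48 FPKM in labelled WT replicate 2 and below 0.001 FPKM elsewhere, so how fragments were split between them is uncertain. Atp6v0b, a further ring subunit, had 61.2 and 44.0 FPKM against 75.9 and 70.7 FPKM. Both ring genes lay lower in the libraries labelled Sox2 without overlap but did not pass (log2 differences -0.35 and -0.49, limma adjusted p = 0.477 and 0.331), and after median-of-ratios rescaling the difference of Atp6v0c was 0.00.

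Subunit a carries the half-channels for protons and decides where in the cell the pump goes. Atp6v0a1 had 34.3 and 29.0 FPKM in the libraries labelled Sox2 against 37.3 and 24.6 FPKM in those labelled WT. Atp6v0a2, the Golgi and endosome form, had 7.46 and 5.87 FPKM against 9.37 and 5.55 FPKM. Atp6v0a4, the form of kidney and epididymis, had 1.41 and 1.83 FPKM against 0.808 and 0.0849 FPKM. Only the last of the 3 differed without overlap, and it did not pass (log2 difference 0.90, limma adjusted p = 0.169). It overlaps Tmem213 and D630045J12Rik, so some of its few fragments may belong to these neighbours.

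Tcirg1 encodes the a3 form, known from osteoclasts, and is a pump gene outside the symbol rule. It had 9.15 and 6.63 FPKM in the libraries labelled Sox2 against 5.74 and 3.56 FPKM (log2 difference 0.67, limma adjusted p = 0.292). With Tcirg1 counted, Atp6v0a1 held 65.6% and 66.9% of subunit a against 70.1% and 72.8%, and Atp6v0a2 held 14.2% and 13.5% against 17.6% and 16.4%. Tcirg1 held 17.5% and 15.3% against 10.8% and 10.5%, and Atp6v0a4 2.69% and 4.23% against 1.52% and 0.251%. Tcirg1 and Atp6v0a4 thus took up a larger part of subunit a in both libraries labelled Sox2, although neither gene passed. All 4 shares were without overlap, but they are not separate observations, because a rise in some shares lowers the others.

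Subunit d couples the V0 sector to the central stalk. Atp6v0d1 had 44.4 and 28.1 FPKM in the libraries labelled Sox2 against 35.2 and 36.7 FPKM in those labelled WT. The osteoclast and kidney form Atp6v0d2 had 2.59 and 0.641 FPKM against 1.78 and 0.0676 FPKM. It was higher in replicate 1 of either label, and neither gene passed. Of 6 osteoclast markers, which summed to 18.7 and 20.8 FPKM against 5.82 and 4.83 FPKM, 2 were tested. Itgb3 was higher, at 16.0 and 19.2 FPKM against 1.25 and 0.400 FPKM, and made up most of the sum under the Sox2 label. Acp5, the tartrate-resistant phosphatase, had 2.08 and 0.888 FPKM against 4.21 and 3.73 FPKM and did not pass (log2 difference -1.04, limma adjusted p = 0.119). Atp6ap1 and Atp6ap2, which help assemble the pump, had 54.6 and 36.5 FPKM against 58.7 and 38.3 FPKM and 25.4 and 18.2 FPKM against 25.7 and 21.2 FPKM. Atp6ap1l was listed at 0.

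**Figure D3:**
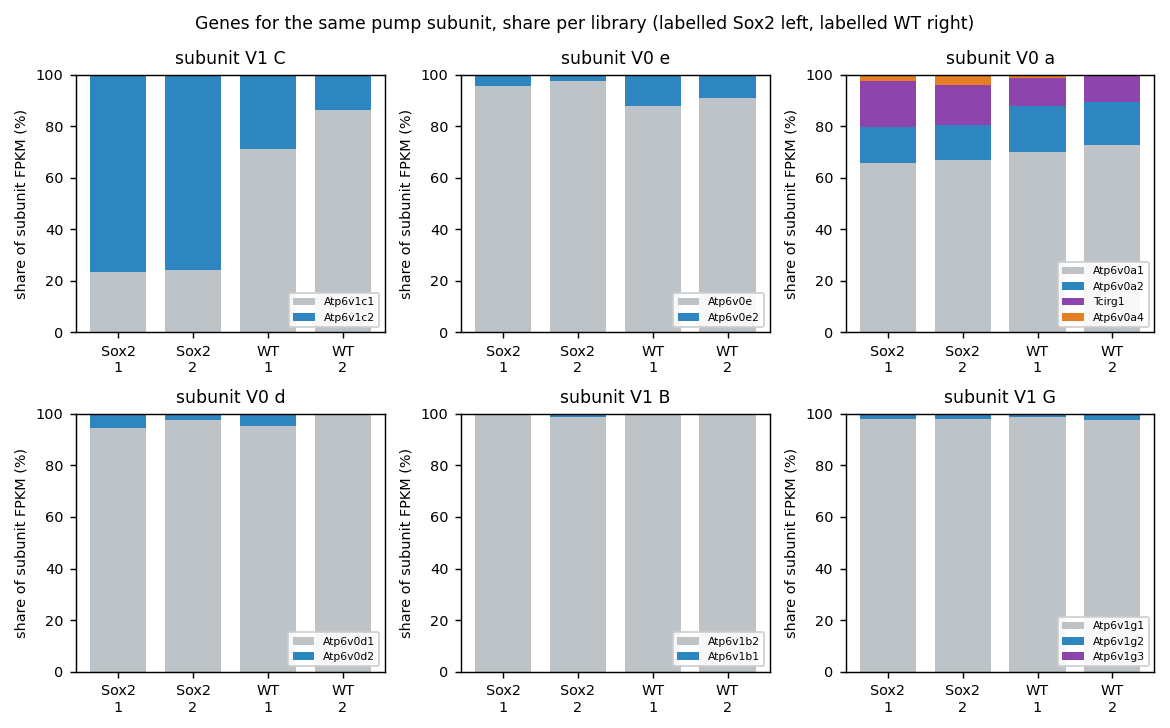
Share of each gene in the summed FPKM of its pump subunit (stacked bars, percent, up to 100), per library, with the libraries labelled Sox2 left and those labelled WT right. Atp6v1c2 makes up 76.7% and 75.9% of subunit C in the libraries labelled Sox2 against 29.0% and 13.9% in those labelled WT, while subunits d, B and G come mainly from 1 gene in every library.

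Among the cathepsins, Ctsh was the highest by mean and the 1 that passed. Cathepsin H is an aminopeptidase that trims surfactant proteins B and C in AT2 cells. Listed at chr9:90054267-90076095, Ctsh had 371 and 280 FPKM in the libraries labelled Sox2 against 151 and 92.5 FPKM in those labelled WT. The labels did not overlap, and the means were 326 ± 63.8 FPKM under the Sox2 label and 122 ± 41.3 FPKM under the WT label (SD, n = 2 each), a 2.68-fold difference. The log2 difference was 1.44 (SE 0.34, limma adjusted p = 0.0226). The limma call ended when any of 3 libraries was left out, namely labelled Sox2 replicate 1 (1.24, adjusted p = 0.114), labelled Sox2 replicate 2 (1.64, adjusted p = 0.0871) or labelled WT replicate 2 (1.09, adjusted p = 0.0969). Among the 12040 tested genes Ctsh ranked 130 and 141 from the top in the libraries labelled Sox2, against 393 and 589 in those labelled WT.

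Levels of AT2 markers moved with Ctsh, as did the AT1 and endothelial sums, whereas basal and squamous markers went the other way. Summed macrophage and mesenchymal markers overlapped between the labels. Markers of airway club cells summed to 3527 and 6018 FPKM in the libraries labelled Sox2 against 1944 and 2156 FPKM in those labelled WT. Of 3 tested club cell markers 1 passed, upward. Cyp2f2 did not pass and overlapped, at 94.3 and 107 FPKM against 72.6 and 376 FPKM. The surfactant genes Sftpc and Sftpb had 21175 and 14801 FPKM and 1725 and 1144 FPKM in the libraries labelled Sox2, against 5003 and 796 FPKM and 426 and 70.1 FPKM in those labelled WT. Of the 14 AT2 markers 12 were higher. Per FPKM of the summed AT2 markers, Ctsh stood at 0.0138 and 0.0150 in the libraries labelled Sox2 against at 0.0231 and 0.0807 in those labelled WT. Sftpc made up most of the AT2 sum in every library. Per FPKM of the summed AT1 markers, Ctsh stood at 0.0440 and 0.0289 in the libraries labelled Sox2 against 0.0866 and 0.106 in those labelled WT. Ctsh thus differed less between the labels than either sum did, and single markers were not compared with it. In RNA from sorted populations, fewer cells of a type and less RNA per cell cannot be told apart. The part of AT2 or other cells in the levels of Ctsh and Atp6v1c2 was not tested.

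**Figure D4:**
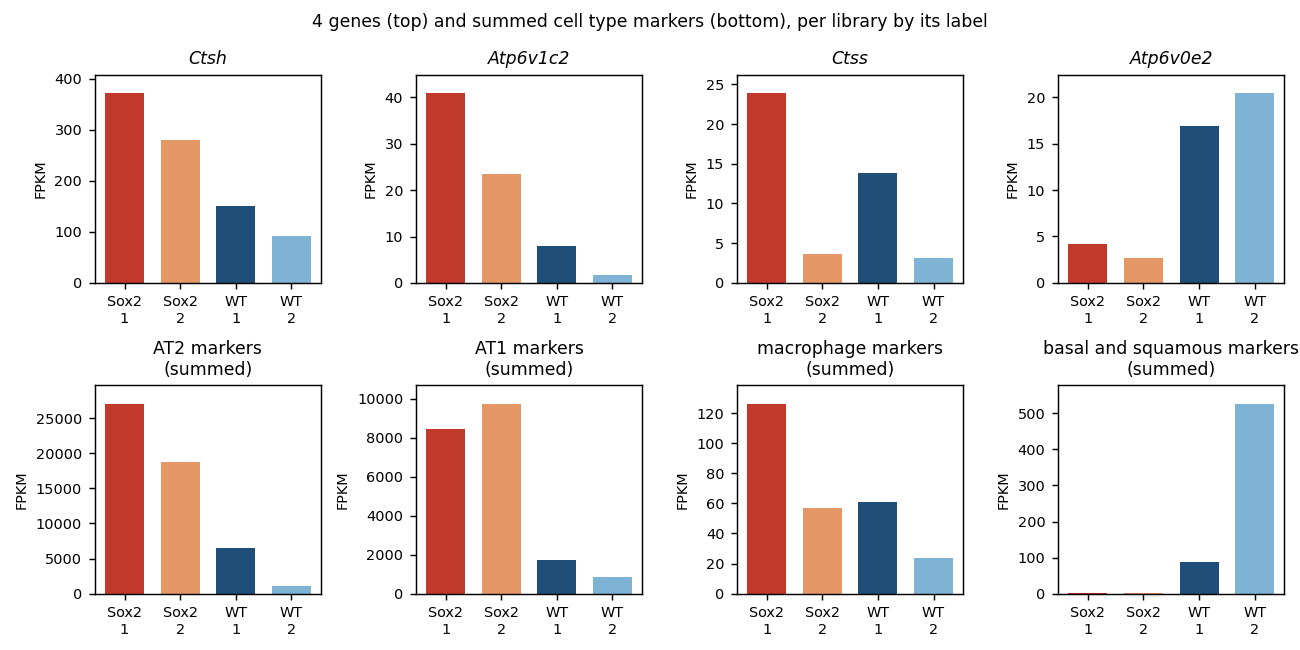
FPKM per library of Ctsh, Atp6v1c2, Ctss and Atp6v0e2 (top) and summed FPKM of AT2, AT1, macrophage, and basal and squamous markers (bottom); 1 bar is 1 library, with the libraries labelled Sox2 left. Ctsh, Atp6v1c2, AT1 and AT2 markers are higher in both libraries labelled Sox2, Ctss is high in replicate 1 of either label, and Atp6v0e2 and the basal and squamous markers are higher in both libraries labelled WT.

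The other abundant cathepsins did not pass. Ctsd, the main aspartic protease of lysosomes, had 142 and 100.4 FPKM in the libraries labelled Sox2 against 129 and 159 FPKM in those labelled WT. Ctsz, a carboxypeptidase, had 83.9 and 59.3 FPKM against 113 and 84.6 FPKM. Ctsd overlapped between the labels. Ctsz was lower in the libraries labelled Sox2 without overlap (log2 difference -0.47, limma adjusted p = 0.374), although its values of 83.9 and 84.6 FPKM lay close together.

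Ctsl, a broadly acting endopeptidase, had 65.4 and 55.7 FPKM in the libraries labelled Sox2 against 49.9 and 37.8 FPKM in those labelled WT. Ctsb, the other major cysteine cathepsin of most cells, had 56.3 and 39.9 FPKM against 44.7 and 38.2 FPKM. Ctsl was higher without overlap (log2 difference 0.46, limma adjusted p = 0.356), and Ctsb overlapped. Ctsc, which activates the serine proteases of granulocytes, had 81.7 and 43.6 FPKM against 48.0 and 26.5 FPKM (log2 difference 0.73, limma adjusted p = 0.251), and its difference of 1.14 passed without labelled WT replicate 1 (limma adjusted p = 0.0425). Replicate 1 was the higher library for Ctsc under either label. The factors of the median-of-ratios rescaling, taken over all tested genes, were also higher in replicate 1. They were 1.03 against 0.758 under the Sox2 label and 1.27 against 1.01 under the WT label. Their part in the levels of Ctsc was not tested.

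Ctso and Ctsf, less studied cysteine cathepsins, did not overlap between the labels and did not pass. Ctso had 6.56 and 5.06 FPKM in the libraries labelled Sox2 against 11.7 and 8.04 FPKM in those labelled WT, and Ctsf had 3.62 and 3.43 FPKM against 1.36 and 2.95 FPKM. Ctsa, the carboxypeptidase that protects lysosomal sialidase and galactosidase, had 24.5 and 20.0 FPKM against 21.2 and 27.6 FPKM, which overlapped.

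Cathepsins of leukocytes and bone were low or differed strongly between the replicates of a label. Ctss, which prepares MHC class II in antigen-presenting cells, had 23.9 and 3.65 FPKM in the libraries labelled Sox2 against 13.9 and 3.13 FPKM in those labelled WT. It was high in replicate 1 and low in replicate 2 of either label. Macrophage markers summed to 126 and 57.1 FPKM against 61.2 and 23.9 FPKM. For 17 of the 19 listed markers a value was found, and 12 were tested. Of these 1 passed (8.33%, against 12.3% of all tested genes), Csf1r, at 27.7 and 25.2 FPKM against 3.02 and 1.03 FPKM. The other 11 overlapped between the labels. Among them, Tyrobp had 20.3 and 5.33 FPKM against 8.54 and 4.90 FPKM, and Cd14 had 14.7 and 8.10 FPKM against 9.06 and 3.75 FPKM. The part of macrophages in the levels of Ctss was not tested.

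Ctsk, the collagen-degrading cathepsin of osteoclasts, had 3.90 and 2.04 FPKM in the libraries labelled Sox2 against 3.01 and 0.637 FPKM in those labelled WT. Ctsw of T and NK cells did not exceed 0.399 FPKM, Ctse did not exceed 0.594 FPKM, and Ctsg of neutrophils and mast cells was listed above 0 only in labelled WT replicate 1, at 0.0445 FPKM. Markers of T and NK cells summed to 6.60 and 1.67 FPKM against 2.19 and 0.822 FPKM. Mesenchymal and endothelial markers summed to 297 and 101 FPKM against 129 and 31.7 FPKM and to 104 and 47.5 FPKM against 31.9 and 11.5 FPKM. Neutrophil and mast cell markers summed to 157 and 29.7 FPKM against 44.1 and 53.1 FPKM. Of the 9 cathepsin genes of the rodent placenta, 8 were listed at 0 and Cts8 did not exceed 0.0677 FPKM.

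Set side by side, the 23 cathepsins summed to 863 and 614 FPKM in the libraries labelled Sox2 against 587 and 482 FPKM in those labelled WT, while the 25 pump genes summed to 838 and 655 FPKM against 1022 and 947 FPKM. The ratio of the 2 sums, which no scaling of a library can change, was 1.03 and 0.938 in the libraries labelled Sox2 against 0.574 and 0.509 in those labelled WT. Without Ctsh it was 0.587 and 0.509 against 0.427 and 0.411, still without overlap. Ctsh made up 43.0% and 45.7% of all cathepsin FPKM in the libraries labelled Sox2 against 25.7% and 19.2%, and the cathepsins without Ctsh had a mean of 413 ± 112 FPKM under the Sox2 label against 413 ± 33.2 FPKM under the WT label (SD, n = 2 each). The V1 sum over the V0 sum was 0.996 and 0.798 in the libraries labelled Sox2 against 1.08 and 0.674 in those labelled WT, which overlapped.

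**Figure D5:**
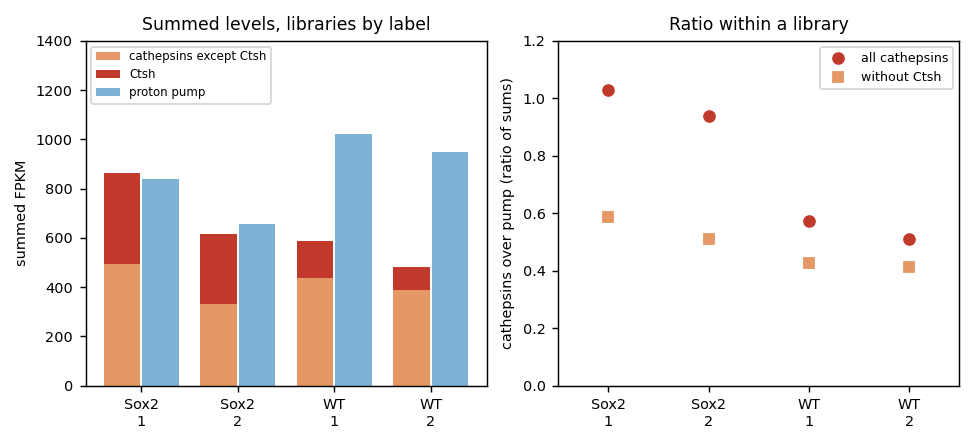
Left, summed FPKM of the 23 cathepsins (Ctsh stacked on the others) and of the 25 pump genes per library; right, the ratio of the sums, with and without Ctsh. The ratio with all cathepsins is 1.03 and 0.938 in the libraries labelled Sox2 against 0.574 and 0.509 in those labelled WT.

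By median, the 11 tested cathepsins had a log2 difference of 0.46 and the 21 tested pump genes one of -0.33, beside -0.29 for all tested genes. After median-of-ratios rescaling these medians were 0.76, 0.02 and 0.00, and with quantile normalization the pump median was -0.05, so its sign depends on the scaling. Of the cathepsins 7 had a difference above 0 and 4 below it, and of the pump genes 4 and 17, where 32.5% of all tested genes lay above 0. Of the pump genes 10 lay above the median of all genes and 11 below it. Of the cathepsins 9 lay above that median and 2 below it. This side was not particular to cathepsins among the further lists described next. Of 40 other lysosomal hydrolases and their activators 33 lay above it and 7 below. For lysosomal membrane genes the counts were 13 and 5, and for genes that sort enzymes to the lysosome 4 and 10.

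Further lists hold genes that work with the cathepsins and the pump, and their counts stand beside the 12.3% called among all tested genes. None of 10 genes for the a3 subunit and pump assembly passed, with the pump-associated Rnasek at 62.8 and 67.8 FPKM in the libraries labelled Sox2 against 66.2 and 76.3 FPKM in those labelled WT. Of 18 tested lysosomal membrane genes 2 were higher and 1 was lower (16.7% in all). The cholesterol exporter Npc1 (log2 difference 1.64, limma adjusted p = 0.0189) and the ion channel Tpcn2 (1.23, limma adjusted p = 0.0486) were higher, and Laptm4b (-1.15, limma adjusted p = 0.0363) was lower. Of 40 other lysosomal hydrolases and their activators 1 was higher, the acid lipase Lipa, at 26.2 and 13.8 FPKM against 6.40 and 2.55 FPKM. The thioesterase Ppt2 was lower, at 2.16 and 1.07 FPKM against 6.09 and 5.28 FPKM, and 38 did not pass. These 5 calls were each lost when either library labelled Sox2 was left out and when no filter on low values was used. The calls of Npc1 and Tpcn2 were also lost without labelled WT replicate 2, and those of Laptm4b and Ppt2 without labelled WT replicate 1. Those of Tpcn2 and Laptm4b were also lost with a variance model without trend, that of Laptm4b with median-of-ratios rescaling, and that of Ppt2 with a pseudocount of 0.1 or rescaling without small RNA genes.

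Of 14 genes that sort enzymes to the lysosome, the receptor Sort1 was higher, at 81.4 and 74.0 FPKM in the libraries labelled Sox2 against 32.5 and 20.0 FPKM in those labelled WT (log2 difference 1.57, limma adjusted p = 0.0136), and 13 did not pass. Its call was likewise lost without either library labelled Sox2. None of 15 tested regulators passed. Their most abundant members, Lamtor2 and Lamtor1 of the nutrient-sensing complex on the lysosome, had 34.5 and 24.8 FPKM against 45.4 and 58.1 FPKM and 26.3 and 26.2 FPKM against 39.2 and 49.5 FPKM. Tfeb had 7.10 and 6.99 FPKM against 6.73 and 9.78 FPKM. None of 6 tested cathepsin inhibitors passed, with the secreted cystatin Cst3 at 187 and 122 FPKM against 153 and 158 FPKM and the cytosolic Cstb at 78.5 and 57.7 FPKM against 112 and 125 FPKM.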

How the data were processed

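RNA-seq of 4 libraries, 2 labelled Sox2 and 2 labelled WT by their titles, was analysed from the authors' deposited FPKM tables, 1 per library, which per the file headers also hold bounds around each value. Tools named per the submitters' processing notes are Bowtie2, TopHat2, Cuffdiff and Cufflinks, with the build mm10; their versions, the annotation and the use of strand are not given in these sources. A pooled table, whose columns carry no group name, was not used. Entries of the same symbol were added (267 genes), 1 gene with a failed value was left out, and log2(FPKM + 1) was tested with limma 3.58.1 (R 4.3.3) for genes whose mean reached 1 FPKM (trended eBayes, two-sided, Benjamini-Hochberg over 12040 genes), leaving 2 residual degrees of freedom per gene. The fit was also run on simulated data with independent normal noise, which these data need not follow, and no result above rests on it. Depth is unknown. Folds are ratios of group means.

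The members and gene lists were chosen with earlier results of these data known. Per-library values are given for members past the threshold, genes of subunits with more than 1 gene, and the 6 highest cathepsins and 6 highest pump genes. From each further list up to 3 members past the threshold, or the 2 most abundant, are named. The other members with values, Tfeb, Foxi1, the overlapping neighbours and the 2 promoters shown in full were picked with their values in view. Alternatives were other pseudocounts, filters, scalings and variance models, a replicate block, and omission of each library in turn.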

Additional observations from a re-analysis of the deposited data

How the results depend on the processing

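The calls of Atp6v1c2, Ctsh and Atp6v0e2 held with 0.1 as the pseudocount, a 5 FPKM filter, 3 rescalings, both other variance models and the replicate block. Without any filter on level, limma gave 0 higher and 0 lower genes and 0 members in either direction, while 1145 and 2467 genes and 5 members had an unadjusted p under 0.05. A filter on genes at 0 in every library alone, chosen after seeing the data, gave 0 genes higher, 3 lower and 0 members in either direction, with adjusted p from 0.0847 for Atp6v0e2 to 0.125 for Ctsh among the 3 called members. Over all genes 506 were higher and 976 lower. Higher genes numbered 964 with median-of-ratios rescaling, 980 with quantile normalization and 805 with rescaling without small RNA genes. With 1 library left out they numbered 119 to 837 and lower genes 115 to 1312, and members called numbered 0 to 3 higher and 0 to 2 lower. The robust variance model gave 2 lower members. The replicate numbers are not tied to a litter or day by the labels, and same-numbered deviations correlated at 0.234 in 2 pairs, which does not settle whether same-numbered libraries are paired, so no pairing was assumed. The replicate block gave 1142 genes higher, 2730 lower and 2 lower members, with Ctsc (0.73) added among the higher ones and Atp6v1d (-1.04) among the lower.

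Some members that did not pass changed sign, also without passing. With median-of-ratios rescaling, quantile normalization and rescaling without small RNA genes the log2 differences were 0.26, 0.24 and 0.21 for Atp6ap1, 0.22, 0.21 and 0.17 for Atp6ap2, 0.20, 0.15 and 0.15 for Atp6v0a2, 0.32, 0.32 and 0.27 for Atp6v0d1, 0.11, 0.11 and 0.06 for Atp6v1e1, 0.21, 0.20 and 0.16 for Ctsa, and 0.09, 0.02 and 0.03 for Ctsd. Of the 3 rescalings only median-of-ratios turned Atp6v0c (0.00), Atp6v1g1 (0.02) and Atp6v1g2 (0.02). With 1 library left out, differences ran from -0.39 to 0.22 for Atp6ap1, -0.34 to 0.11 for Atp6ap2, -0.23 to 0.35 for Atp6v0a1, -0.44 to 0.22 for Atp6v0a2, -0.34 to 0.30 for Atp6v0d1, -0.20 to 1.18 for Atp6v0d2, -1.25 to 0.04 for Atp6v1a, -0.57 to 0.11 for Atp6v1e1, -0.36 to 0.02 for Atp6v1g2, -0.31 to 0.06 for Ctsa, -0.05 to 0.44 for Ctsb, -0.05 to 1.24 for Ctsk, and -0.75 to 1.66 for Ctss. The cause of these changes was not tested. The share of Atp6v1c2 in subunit C differed by 47.2 to 62.3 percentage points and that of Atp6v0e2 in subunit e by -8.61 to -5.69 with 1 library left out.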
